A study of Rattus norvegicus with 10 samples.

Results

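Hamp, Ccl3 and Lefty1 are 3 genes for secreted proteins that were listed by the study among the mRNAs with higher levels in the rat heart after dexmedetomidine (DEX), a selective agonist of the alpha2 adrenergic receptor. They were taken by their probe identifiers (ENSRNOG00000021029 for Hamp, ENSRNOG00000011205 for Ccl3 and ENSRNOG00000003286 for Lefty1) and make up 3 of the 20174 gene probes of the array and 3 of the 14 mRNAs in the study's list of rises. Levels were read in the anterior wall of the left ventricle of 10 male Wistar rats of 250 to 350 g, with 1 Toray 3D-Gene oligonucleotide array and 1 colour (Cy5) for each rat. The DEX group (n = 5) was infused by the tail vein for 30 min, with a loading rate of 6 mcg/kg/h over the first 10 min and a maintenance rate of 0.7 mcg/kg/h over the next 20 min, and then received saline for a 5-min washout. The control group (n = 5) was given saline alone at matching rates. All rats were free of ischemia, and the tissue is whole myocardium, in which a change in the number of cells of a type and a change in RNA per cell cannot be told apart.

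Hamp encodes hepcidin, the peptide hormone that binds the iron exporter ferroportin and leads to its removal from the cell surface. Most circulating hepcidin is made in the liver, and cardiomyocytes also make it. Hamp transcription is known to be raised by bone morphogenetic protein (BMP) signals through Smad proteins and by interleukin-6 through STAT3. Ccl3 encodes macrophage inflammatory protein 1-alpha, a CC chemokine that is released mainly by macrophages and other leukocytes and that attracts further leukocytes. Lefty1 encodes a divergent member of the TGF-beta family that antagonizes Nodal and is known for its role in left-right patterning of the embryo.

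The genes lie on different chromosomes in the GRCr8 assembly, by the RefSeq gene table. Hamp spans chr1:95298332-95300271, Ccl3 spans chr10:68948889-68950439 and Lefty1 spans chr13:95188091-95191488. The files give neither the sequence of a probe nor its place within the gene. The sequence upstream of Hamp is shown because the BMP and STAT responses of this gene are attributed to elements of its promoter. The 250 bases before its start, chr1:95300272-95300521 on the minus strand, read 5′ to 3′ with matches to the searched motifs in capitals.

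Hamp: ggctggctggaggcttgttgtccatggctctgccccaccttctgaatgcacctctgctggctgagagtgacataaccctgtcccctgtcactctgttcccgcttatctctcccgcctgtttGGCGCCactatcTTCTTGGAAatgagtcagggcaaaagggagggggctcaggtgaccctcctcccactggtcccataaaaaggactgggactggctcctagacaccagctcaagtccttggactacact

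The first run of capitals matches GGCGCC, the core of a BMP-responsive element, and begins at -129 from the start. The next run matches TTCNNNGAA, the general STAT pattern, and begins at -117. Both patterns read the same on either strand. GGCGCC is found in 8.69% of 33469 promoter windows of the same length, and TTCNNNGAA in 7.67%. The motifs TGACGTCA, CACGTG, GGACTTTCC, AATCCACA and TATAAA, searched on both strands, have no match in this window. The motif list is a description of the letters only and was not set against the expression values. The promoter table used here holds 1 of the 3 genes, Hamp.

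Hamp showed a normalized signal of 52.3, 37.9, 47.9, 61.3 and 38.6 in control rats 1 to 5. In DEX rats 1 to 5 the signal was 58.3, 63.1, 86.5, 72.3 and 90.9. The normalized signal is the spot intensity less the mean of the blank spots, scaled so that the median detected probe of each array is 25. Control 4 lay above DEX 1, and in the other 24 of 25 pairs of a DEX rat with a control rat the DEX rat was higher. The group means were 47.6 ± 9.82 (SD, n = 5) for control and 74.2 ± 14.2 (SD, n = 5) for DEX rats, a ratio of 1.56. On the log2 scale the difference was 0.64 (SE 0.17).

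Ccl3 was a dim probe in both groups. Its normalized signal was 8.47, 6.97, 5.83, 9.38 and 5.65 in control rats 1 to 5 and 12.8, 8.48, 14.9, 7.20 and 12.4 in DEX rats 1 to 5. DEX rats 1, 3 and 5 lay above every control rat, whereas DEX rats 2 and 4 lay within the range of the controls. The group means were 7.26 ± 1.63 (SD, n = 5) for control and 11.1 ± 3.20 (SD, n = 5) for DEX rats, a ratio of 1.54, with a log2 difference of 0.60 (SE 0.22).

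The Lefty1 probe was dim as well. Its normalized signal read 6.34, 5.63, 4.35, 9.54 and 4.74 in control rats 1 to 5 and 10.01, 9.52, 9.12, 8.45 and 9.73 in DEX rats 1 to 5. The DEX rats lay close together and above 4 of the 5 control rats. Control 4 was higher than 3 of the 5 DEX rats. The group means were 6.12 ± 2.06 (SD, n = 5) for control and 9.37 ± 0.606 (SD, n = 5) for DEX rats, a ratio of 1.53, with a log2 difference of 0.67 (SE 0.19). The coefficient of variation was 33.7% among control rats and 6.47% among DEX rats.

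**Figure D1:**
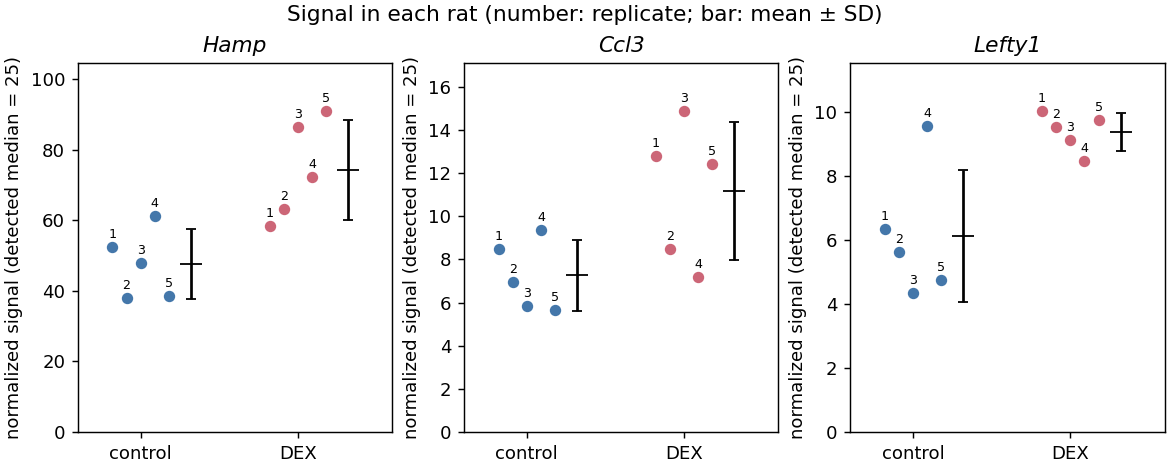
Normalized signal of Hamp, Ccl3 and Lefty1 in each rat (y axis, scaled to a median of 25 for detected probes), with the replicate number beside each point and the mean ± SD of 5 rats at the right of each group. Control 4 is the highest control rat for each gene, and the groups overlap for each gene.

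The genes were chosen by the study for this same contrast, at a ratio of 1.5 and an unadjusted p-value under 0.05, so the differences are given as descriptions without a test. In limma on log2 signals, with the same thresholds, 3 of the 3 genes were called higher, beside 0.441% of the 14519 probes tested, and 0 of the 3 genes had groups that did not overlap, beside 0.193% of the probes. Nothing is read from these counts, because the contrast chose the genes. The thresholds use unadjusted p-values. After Benjamini-Hochberg adjustment, 0 of the 14519 probes had a limma p under 0.05, and the lowest adjusted p was 0.148. Near the threshold, among probes detected on all arrays with an unadjusted p-value under 0.05 by the study's test, the closest probe above it was Tns4 at a ratio of 1.502 and the closest below it was Rps17l1 at 1.498. Only mRNAs of the study's lists have a symbol here, so Rps17l1 is also listed and the list reaches slightly under 1.5. The median tested probe had a log2 difference of -0.17, DEX minus control. Relative to that probe, the log2 differences were 0.81 for Hamp, 0.76 for Ccl3 and 0.84 for Lefty1.

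The same rats were examined by the place of each gene among the detected probes of its own array, a measure that no scaling of an array can change. The percentile is the share of detected probes with a lower signal. It depends on how strongly a probe binds its target, so it is compared here between rats and not between genes. Hamp stood at percentile 61.1 ± 3.72 (SD, n = 5) for control and at 69.7 ± 3.80 (SD, n = 5) for DEX rats. The control rats ran from 57.3 to 66.5 and the DEX rats from 64.8 to 74.0, with DEX 1 as the DEX rat within the control range.

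Ccl3 stood at percentile 26.1 ± 4.50 (SD, n = 5) for control and at 33.8 ± 6.11 (SD, n = 5) for DEX rats, with DEX rats 2 (29.4) and 4 (25.6) below control 1 (30.2) and control 4 (31.4). Lefty1 stood at percentile 22.4 ± 6.10 (SD, n = 5) for control and at 31.0 ± 1.41 (SD, n = 5) for DEX rats. Only DEX 1 (32.8) was above control 4 (31.8), and the remaining 4 control rats ran from 16.1 to 24.6. In percentile points, DEX minus control, the differences were 8.51 for Hamp, 7.71 for Ccl3 and 8.64 for Lefty1.

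**Figure D2:**
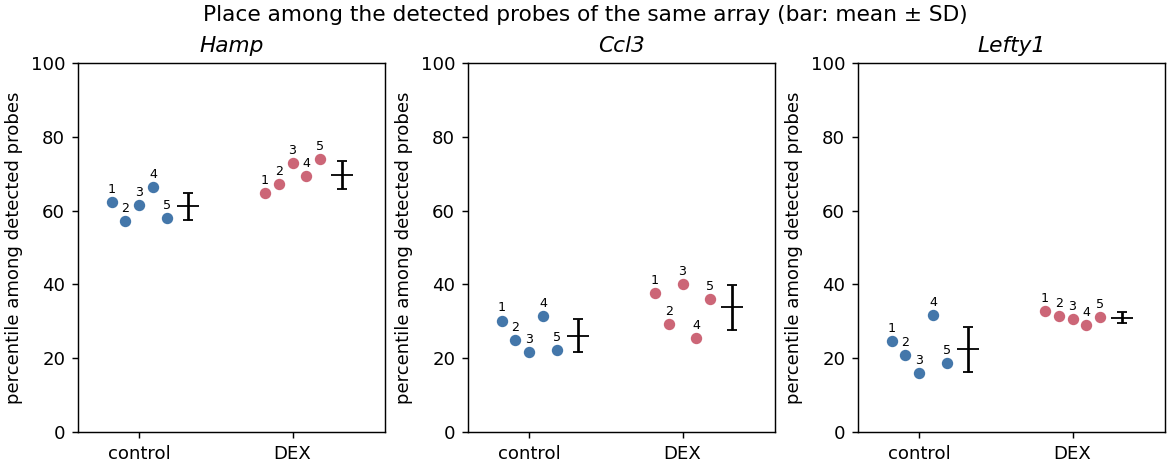
Percentile of each gene among the detected probes of the same array (y axis, 0 to 100), by rat, with the mean ± SD of 5 rats for each group. The gap between the groups is 7.71 to 8.64 percentile points, and control 4 reaches into the DEX range for each gene, as control 1 also does for Ccl3.

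Each of the genes was detected on all 10 arrays. To count as detected, a spot had to exceed the blank mean by 2 SD of the blank spots, and its height above the blank mean is given here as a multiple of these 2 SD. Hamp stood at 22.2 to 55.4 times this height. Ccl3 stood at 3.55 to 6.20 times in control rats and at 4.58 to 9.52 times in DEX rats. Lefty1 stood at 2.65 to 6.30 times in control rats and at 5.37 to 7.17 times in DEX rats. None of the 96 negative control spots reached the intensity of Hamp, Ccl3 or Lefty1 on any array. Of 1344 blank spots, at most 1 reached the intensity of Hamp on an array, at most 6 that of Ccl3 and at most 5 that of Lefty1.

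Before any subtraction, the spot of Hamp read 97.8 to 130.8 scanner units in control rats and 125.6 to 175.9 in DEX rats. The spot of Ccl3 read 65.0 to 70.7 units in control rats and 70.1 to 78.0 in DEX rats, and that of Lefty1 read 63.6 to 70.9 and 70.8 to 74.7. For both dim genes the whole difference between the group means was thus a few units, 7.42 for Ccl3 and 6.62 for Lefty1, on top of a blank level that moved in the same direction. The blank mean was 57.1 to 60.5 units for control rats and 59.9 to 62.6 for DEX rats. After the blank mean was subtracted, the differences were 33.0 units for Hamp, 4.81 for Ccl3 and 4.01 for Lefty1. When the blank mean entered the fit as a covariate, the log2 difference was 0.49 (SE 0.27) for Hamp, 0.86 (SE 0.33) for Ccl3 and 0.68 (SE 0.30) for Lefty1.

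The scanner also recorded a background beside each spot, which is not part of the normalized signal. For Hamp this background was almost as bright as the spot itself, at 93.9% to 105% of it. For Ccl3 it was 91.1% to 99.8% of the spot, and for Lefty1 86.0% to 97.2%. Its mean was higher in DEX rats at the spots of all 3 genes, 112 against 143 units for Hamp, 63.6 against 70.8 for Ccl3 and 61.0 against 65.5 for Lefty1. For Lefty1 it ran from 55.6 to 63.8 units in control rats and from 64.1 to 68.4 in DEX rats, without overlap. How often the background separated the groups at other spots was not tested. The spot less this background differed between the groups by 4.87 units for Hamp, 0.159 for Ccl3 and 2.18 for Lefty1. A correction that uses it (normexp with an offset of 50, then quantile normalization) left log2 differences of 0.05 for Hamp, 0.01 for Ccl3 and 0.04 for Lefty1. The parts of the local background, the offset and the quantile step in these values were not separated, and the part of the background in the differences between the groups was not tested.

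**Figure D3:**
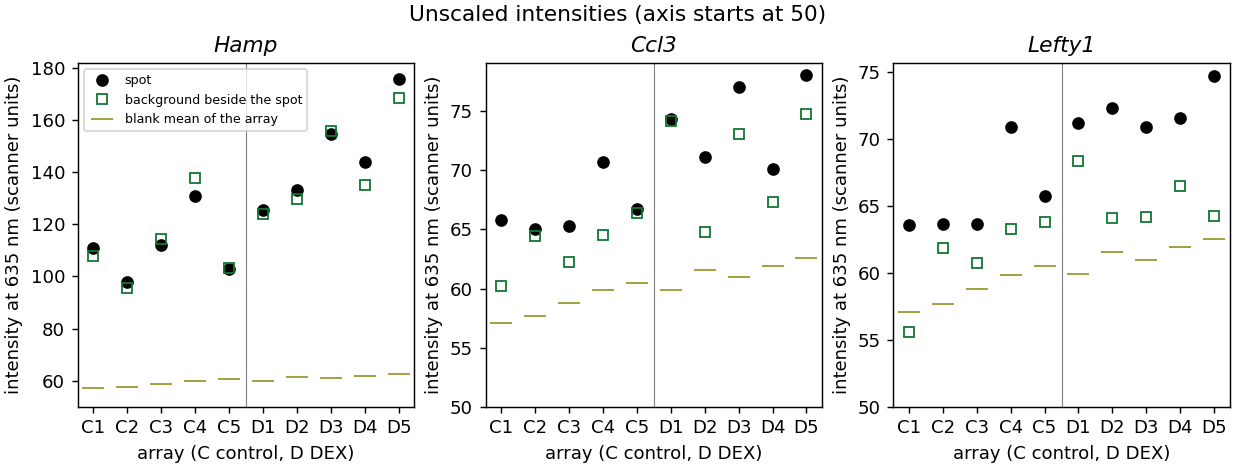
Unscaled Cy5 intensity (y axis, from 50 scanner units) of the spot, of the background beside it and of the blank mean on each array, controls (C) at the left and DEX (D) at the right. The Hamp spot stands far above the blank mean, whereas the Ccl3 and Lefty1 spots stand 4.85 to 16.1 units above it. For each gene the background beside the spot is close to the spot itself.

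Gene spots next to each member on the array were compared between the groups by their own blank-subtracted log2 signals. These signals carry the levels of the neighbouring genes. They do not measure the background beside the spots, which was higher in DEX rats. Around Hamp, 5 adjacent gene spots detected on at least 5 arrays had a median log2 difference of -0.28, DEX minus control, with a range from -0.34 to -0.09. Around Ccl3, 6 such spots had a median of -0.13, and around Lefty1, 3 such spots had a median of 0.07. The highest differences of these neighbours were -0.09 beside Hamp, 0.14 beside Ccl3 and 0.27 beside Lefty1. The members were chosen for their difference, which was larger than in 99.7% (Hamp), 99.5% (Ccl3) and 99.8% (Lefty1) of tested probes. That no neighbour reached its member was thus likely from the start, and nothing is read from it.

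The spread between rats of one group was set against the 1000 tested probes nearest in mean log2 signal. The within-group SD of Hamp was 0.29 on the log2 scale, larger than that of 85.4% of such probes, whose median was 0.20. The within-group SD of Ccl3 was 0.39, larger than that of 84.3% of such probes (median 0.29), and that of Lefty1 was 0.32, larger than that of 61.9% (median 0.29). With both groups pooled, the 3 genes thus varied between rats of one group at or above the middle of probes of like signal. For Lefty1 this SD joins unlike groups, at 0.44 among control rats and 0.095 among DEX rats.

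The spread of each gene within the groups entered the choice through its p-value, whereas the way in which the deviations of one gene ran with those of another did not. The deviations were compared between the genes after the group means were removed from the log2 signals. Rats with more Ccl3 signal than their group tended to have more Lefty1 signal (Pearson's r = 0.64, exact permutation of arrays within groups, two-sided, p = 0.00451, Benjamini-Hochberg adjusted over 3 pairs 0.0135, n = 10 arrays). DEX 2 and DEX 3 were exceptions. DEX 3 had the highest Ccl3 of all rats, but its log2 signal of Lefty1 was 3.19 against a DEX mean of 3.23. The log2 SD of Lefty1 was 0.44 among control rats and 0.095 among DEX rats, so the control rats weigh most in this r. By rank the same pair gave Spearman's rho = 0.64 (exact permutation p = 0.0388, adjusted 0.116). Without the 2 arrays farthest from the median of Ccl3, DEX 2 and DEX 4, r was 0.86. By rank the adjusted p was thus above 0.05. With single arrays left out, r stayed between 0.58 and 0.75, and its adjusted p was above 0.05 in 5 of the 10 cases, at 0.0573 without control 2, 0.0771 without control 3, 0.0979 without control 4, 0.0583 without control 5 and 0.0604 without DEX 4.

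For Hamp and Ccl3, r was 0.53 (exact permutation p = 0.139, adjusted 0.208) and rho was 0.49 (exact permutation p = 0.180, adjusted 0.270), and r without control 4 and DEX 1 was 0.68. For Hamp and Lefty1, r was 0.48 (exact permutation p = 0.211, adjusted 0.211) and rho was 0.37 (exact permutation p = 0.333, adjusted 0.333), and r without control 4 and DEX 1 was 0.21. Leaving out control 4 alone brought the r of Hamp and Lefty1 to 0.05. Both genes of a pair were read on the same array and share its blank level and scaling. The background beside the spots, close to the spots themselves, was not removed from these signals. Its part in the correlations was not tested, so they may not reflect RNA levels alone. Without scaling, r was 0.66 for Ccl3 and Lefty1, 0.56 for Hamp and Ccl3 and 0.57 for Hamp and Lefty1.

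**Figure D4:**
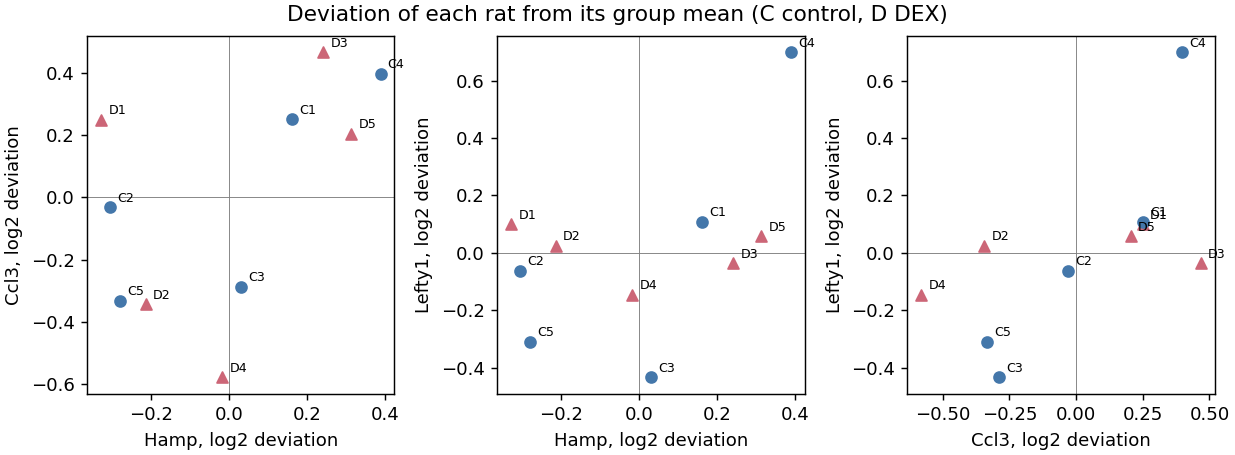
Deviation of the log2 signal of each rat from its group mean, for each pair of genes (x and y axes in log2 units; circles, control; triangles, DEX). Control 4 is high for each gene, and Ccl3 and Lefty1 give the highest correlation of the 3 pairs (r = 0.64).

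Within groups, no relation of the genes to the level of the array as a whole was resolved with 10 arrays, which does not show that there is none. The r of Hamp, Ccl3 and Lefty1 with the blank mean was 0.25, -0.32 and -0.02, and with the number of detected probes -0.11, 0.20 and 0.17. Over 9 such relations, which also took in the median signal of the probes detected on all arrays, the lowest Benjamini-Hochberg adjusted p was 0.921 for r and 0.760 for rho (exact permutation within groups, two-sided, n = 10 arrays). Without the 2 arrays farthest in blank mean, control 1 and control 5, the r of Hamp with the blank mean was 0.78.

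Among the 164 other probes with a symbol here, those most like each gene within groups were taken by r over the 10 arrays, as a description of the highest of many values. For Hamp they were Or8j3, an olfactory receptor gene (r = 0.74, rho = 0.65), Ccl3, and Usp49, a ubiquitin-specific protease gene (r = 0.51, rho = 0.47). For Ccl3 they were Or8j3 (r = 0.74, rho = 0.71), Tbc1d2b (r = 0.69, rho = 0.50) and Lefty1. Or8j3, Usp49 and Tbc1d2b each had less signal after DEX, at log2 differences of -0.69, -0.57 and -0.63. Their deviations within groups thus ran with those of genes that differed between the groups in the other direction.

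For Lefty1 the most similar probes with a symbol were Rps26l1 (r = 0.79, rho = 0.21), Rpl39 (r = 0.77, rho = 0.43) and Rpl37al2 (r = 0.73, rho = 0.33), genes named for ribosomal proteins and also higher in the DEX group. Without control 3 and control 4, the r with Lefty1 was -0.24, 0.00161 and -0.27, so these values rest on those 2 rats. Many unnamed probes were closer than any named one. Of 12717 probes detected on all arrays, 34 had a higher r with Hamp than Or8j3, 188 had a higher r with Ccl3 than Or8j3, and 125 had a higher r with Lefty1 than Rps26l1.

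Most genes of the related pathways have no symbol here, because the files list probes by Ensembl identifier only and symbols could be given to the mRNAs of the study's own lists alone. Of 43 genes of iron handling and hepcidin control, 1 has a symbol (Acvr2b), of 59 chemokine, chemokine receptor and inflammatory genes 0 have one, and of 39 genes of Nodal, activin and BMP signalling 3 do (Acvr2b, Sostdc1 and Dact1). The named ones were past the same limma thresholds on the lower side, 1 of 1 and 3 of 3, beside 2.7% of all probes tested. They were chosen by the study on these arrays, 151 of its 165 listed mRNAs being lower, so the counts are no independent evidence of a direction. No ligand, receptor or co-receptor gene other than Acvr2b could be named for hepcidin control, Ccl3 or Lefty1.

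Acvr2b encodes a type II receptor that binds activins and Nodal, the ligand Lefty1 antagonizes. Its normalized signal was 12.9, 12.8, 14.2, 8.07 and 9.46 in control rats 1 to 5 and 7.88, 4.84, 7.53, 7.60 and 6.92 in DEX rats 1 to 5, without overlap. The means were 11.5 ± 2.60 (SD, n = 5) and 6.95 ± 1.23 (SD, n = 5), a log2 difference of -0.72 (SE 0.19, limma adjusted p = 0.268). Control 4, the control rat with the highest Lefty1, had the lowest Acvr2b of the controls. The same rat was also the highest control for Hamp and Ccl3 and the lowest for Dact1 and Sostdc1, described next.

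Dact1 encodes a Dishevelled-binding protein that modulates Wnt and TGF-beta signals. It was 24.3 ± 5.32 (SD, n = 5) for control and 14.2 ± 2.10 (SD, n = 5) for DEX rats, without overlap, a log2 difference of -0.76 (SE 0.17, limma adjusted p = 0.225). Acvr2b and Dact1 were chosen by the study for this contrast. The share of all probes that were lower without overlap is not given here, so nothing is read from their lack of overlap. Sostdc1, a secreted antagonist of BMP and Wnt ligands, was 14.01 ± 4.86 (SD, n = 5) and 7.79 ± 2.70 (SD, n = 5), with overlap and a log2 difference of -0.85 (SE 0.30, limma adjusted p = 0.323). Within groups the r with Lefty1 was -0.50 for Acvr2b, -0.44 for Dact1 and -0.52 for Sostdc1, and the r of Dact1 with Hamp was -0.64, all given as descriptions over 10 arrays.

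Markers of the cells that could contribute these transcripts were mostly without a symbol. Of 11 cardiomyocyte markers 3 were named, of 5 fibroblast markers 1, of 5 endothelial markers 1 and of 4 red blood cell markers 1, while 0 of 9 macrophage and monocyte, 0 of 4 neutrophil, 0 of 3 mast cell, 0 of 4 liver and 0 of 4 atrial markers were. The named ones were all lower in the DEX group and all come from the study's list of falls. Ttn, which encodes the sarcomeric protein titin, had a signal of 19.2 to 31.3 in control rats and of 13.6 to 17.7 in DEX rats. Slc4a1, the anion exchanger of red blood cells, had 12.1 to 26.6 and 9.95 to 18.4, and Fap, a marker of activated fibroblasts, 7.71 to 12.6 and 5.45 to 8.03. With so few named markers, all chosen for a difference between the groups, the labelled tissue was not checked here. The part of leukocytes in the Ccl3 signal and that of liver-type cells in the Hamp signal were not tested.

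The size of the differences was followed through other processing. Over 10 alternatives that kept all arrays, the log2 difference ran from 0.05 to 0.81 for Hamp, from 0.01 to 0.86 for Ccl3 and from 0.04 to 0.83 for Lefty1, the lowest value being that of normexp for each gene. Quantile normalization raised them to 0.81, 0.74 and 0.83, and the deposited whole numbers gave 0.64, 0.57 and 0.66. With each array left out in turn, Hamp ran from 0.57 (without DEX 5) to 0.74 (without control 4), Ccl3 from 0.48 (without DEX 3) to 0.74 (without DEX 4) and Lefty1 from 0.56 (without control 3) to 0.84 (without control 4). On this scale 1.5-fold is 0.585. Hamp fell under it without control 2, control 5, DEX 3 or DEX 5, Ccl3 without control 3, control 5, DEX 1, DEX 3 or DEX 5, and Lefty1 without control 3. With all arrays, and apart from normexp, which left each gene under it, Hamp was under it with the blank mean as a covariate, and Ccl3 with the deposited whole numbers, array quality weights and the blank mean of its own block.

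**Figure D5:**
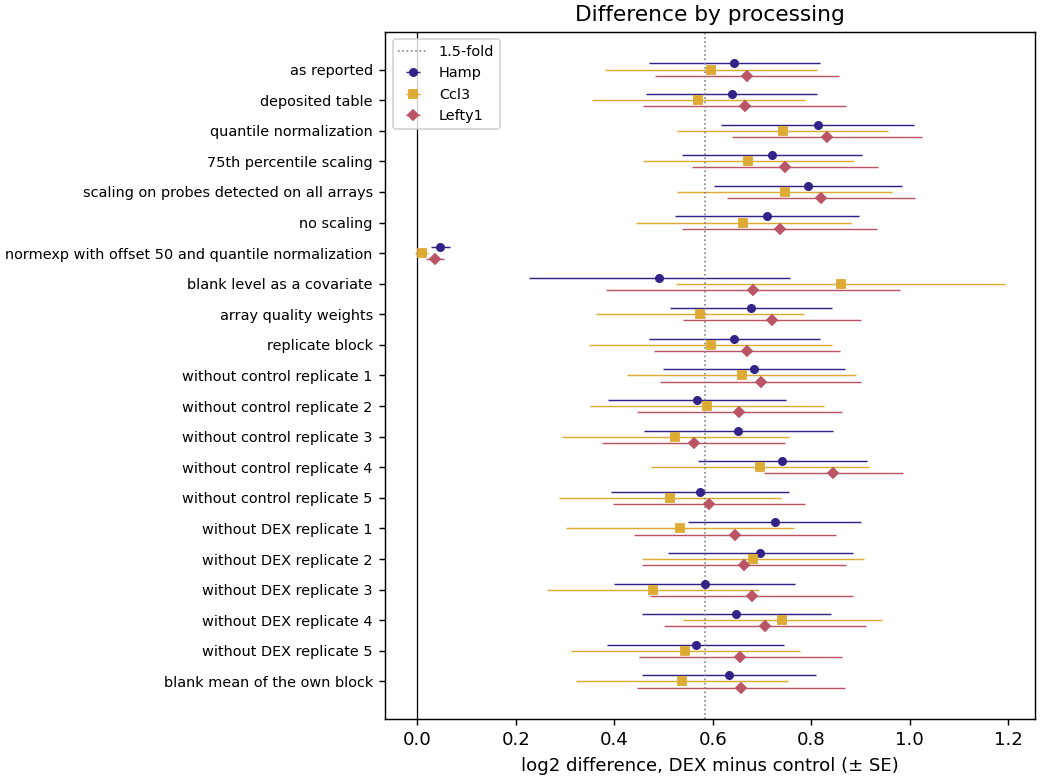
Log2 difference, DEX minus control (x axis, ± SE from limma), of Hamp, Ccl3 and Lefty1 under each processing (y axis), with 1.5-fold as a dotted line. Every value is above 0, most lie between 0.48 and 0.86, and those with normexp are 0.01 to 0.05.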

How the data were processed

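mRNA from 5 control and 5 DEX rats was measured on 1-colour arrays. The authors deposited spot and background intensity values from the scanner, unscaled, and normalized intensities, rounded to whole numbers, in a table. Setting the table against the scanner output gave its steps. The mean of 1344 blank spots without the 68 highest and 68 lowest was subtracted, spots that exceeded it by 2 SD and carried no failure mark counted as detected, and the detected median was set to 25. This gave 142667 of 142668 table values after rounding. The unrounded values were used, on the log2 scale.

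The files hold no symbols. A probe was given one where its ratio of means and t-test p-value were those of 1 mRNA in the study's lists, within a ratio of 5.25e-06 and a relative p of 0.0001. All 165 mRNAs, among them the 3 genes here, matched 1 probe each. Values of those lists are not reported.

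The 14519 probes that at least 3 of 5 arrays of a group detected entered limma 3.58.1 (R 4.3.3), without covariates, undetected spots being set to the lowest detected signal of the array. P-values were adjusted by Benjamini-Hochberg. Correlations were tested by all 14400 permutations within groups. Scipy 1.17.1, pandas 2.3.3 and numpy 2.4.6 were run in Python 3.11.15, and the steps were tested on simulated data. The members, gene lists, motifs and tests were chosen with earlier results of these data known. Genes named are the members, for each the 3 symbol-bearing probes most like it, and list genes with a symbol. Array number limits precision. No 2 arrays were identical, with correlations from 0.982 to 0.994 across probes. The replicate numbers come from the labels. Alternatives are given in the closing section. The miRNA arrays were not analysed here.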

Additional observations from a re-analysis of the deposited data

How the results depend on the processing

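The log2 differences of Hamp, Ccl3 and Lefty1 and their percentile differences were positive under every alternative run. They moved by more than 1 within-group SD under 1 of them, normexp with an offset of 50 and quantile normalization (0.047, 0.0084 and 0.035). Leaving out 1 array at a time gave log2 differences of 0.57 to 0.74 for Hamp, 0.48 to 0.74 for Ccl3 and 0.56 to 0.84 for Lefty1. With the blank mean of each spot's own block, chosen after the data were seen, it was 0.63, 0.54 and 0.66. The 64 probes called higher became 203 with quantile normalization, 193 with scaling on probes detected on all arrays, 121 with 75th percentile scaling and 255 with the blank mean among the covariates, these 4 raising the median log2 difference of all probes from -0.17 to -0.02, -0.02, -0.09 and 0.07. With each array left out, it ran from 26 (without control 3) to 131 (without control 4), and was 110 without DEX 3. Lower calls went from 392 to 98 with quantile normalization, 114 with common scaling, 216 with 75th percentile scaling, 103 with normexp and 79 with the blank covariate, and ran from 211 (without control 1) to 682 (without control 5), with 541 without control 4 and 646 without DEX 1. All these calls use unadjusted p-values. By limma adjusted p under 0.05, in either direction, 0 probes passed in the reported fit. Without control 5, 19 passed, and with the blank mean of the own block 10 did. The correlation of Ccl3 and Lefty1 did not pass with the deposited table (r = 0.52, adjusted p = 0.0750) or without control 2, 3, 4 or 5 or DEX 4, and r ran from 0.58 to 0.75 with each array left out. The replicate numbers did not pair the arrays, since same-numbered arrays correlated from -0.12 to 0.08 in their deviations. With the replicate number as a block, the differences were 0.64, 0.60 and 0.67, and 66 probes were called higher. The r of Ccl3 and Lefty1 was then 0.93 (adjusted p = 0.0750), from 5 pairs of same-numbered arrays. The cause of these changes was not tested. The spots of Ccl3 and Lefty1 stood 4.85 to 16.1 scanner units above the blank mean, which limits their precision. The Hamp spot stood higher above the blank mean, but it differed from the background beside it by only -6.87 to 8.84 units.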
